A study of Homo sapiens with 6 samples.

Results

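The genes described here are 179 long noncoding RNA genes measured on arrays of U-87 MG cells, a line long grown from a human glioblastoma. They were chosen by their symbol and by a measured level. The symbol starts with LINC (long intergenic noncoding RNA), or ends in -DT (divergent transcript) or in -AS1 (antisense RNA 1), and the mean log2 expression value over all 6 arrays is at least 5. Of 989 genes on the array with such names, 179 (18.1%) reached that level: 63 of 459 LINC genes (13.7%), 33 of 99 -DT genes (33.3%) and 83 of 431 -AS1 genes (19.3%). Among all 14884 named genes, 8058 (54.1%) did. LINC00641 and LINC03033 are named in the rule itself because earlier results of these data had shown large differences for them, so their values are given as a description. Just inside the threshold lay NUP50-DT (5.01), RAB30-DT (5.02) and LBX2-AS1 (5.03), and just outside it lay THAP9-AS1 and ST3GAL6-AS1 (both 4.996) and ADORA2A-AS1 (4.99).

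The study set 3 arrays of cells exposed to targeted electromagnetic fields (RGFIELDS) against 3 arrays of unexposed cells, labelled as biological replicates. Whether their cultures were grown separately is not said, so p-values measure the spread between these arrays. Exposure began 24 h after seeding and lasted 54 h, in a culture box inside a Faraday chamber. The fields were directed at hsa-miRNA-381, a mutated alpha-kinase 2 gene, HSP70 and CHI3L1. Control dishes stood in a box outside the chamber, so the field and the box cannot be told apart in any difference below, and all dishes came from 1 cell line in the same medium.

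Long noncoding RNAs are transcripts without a long open reading frame. LINC genes are named for lying between protein-coding genes, though 2 of the 63 here overlap a measured one in RefSeq. A -DT gene starts near the promoter of the gene it is named after and runs the other way, and an -AS1 gene lies on the opposite strand of its namesake. Many transcripts that start upstream of promoters are ended early by the Integrator complex and degraded by the nuclear exosome, so their steady level reflects both synthesis and decay. Some of these RNAs act on genes near them, while for many no function is known.

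Windows around the transcript start are shown for the genes on which the results below turn: LINC00641 and LINC03033, which had the largest changes, and GAS6-DT and PRRT3-AS1, the -DT and -AS1 genes with the smallest p whose named partner was measured and that have an entry in the promoter table. Each window runs 5′ to 3′ on the gene's own strand, from 250 bases before to 50 bases after the start, and comes from RefSeq (GRCh38.p14). Capitals mark matches, on either strand, to a GC box with the letters GGGCGG, to the CCAAT box, to a TATA box with the letters TATAAA and to an ETS core with the letters CCGGAAG.
LINC00641, chr14:21206851-21207150, minus strand: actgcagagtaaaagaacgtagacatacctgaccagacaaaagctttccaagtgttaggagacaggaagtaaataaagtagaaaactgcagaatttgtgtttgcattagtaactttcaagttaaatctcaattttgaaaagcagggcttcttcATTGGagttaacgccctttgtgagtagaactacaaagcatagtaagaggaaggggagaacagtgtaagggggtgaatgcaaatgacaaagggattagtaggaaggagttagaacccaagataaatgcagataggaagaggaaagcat
LINC03033, chr14:61570290-61570589, plus strand: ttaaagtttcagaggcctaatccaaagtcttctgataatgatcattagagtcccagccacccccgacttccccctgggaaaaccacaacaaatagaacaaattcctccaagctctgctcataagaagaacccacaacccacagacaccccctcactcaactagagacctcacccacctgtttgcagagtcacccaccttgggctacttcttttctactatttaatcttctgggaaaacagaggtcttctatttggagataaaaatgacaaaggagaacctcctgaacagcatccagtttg
GAS6-DT, chr13:113863927-113864226, plus strand: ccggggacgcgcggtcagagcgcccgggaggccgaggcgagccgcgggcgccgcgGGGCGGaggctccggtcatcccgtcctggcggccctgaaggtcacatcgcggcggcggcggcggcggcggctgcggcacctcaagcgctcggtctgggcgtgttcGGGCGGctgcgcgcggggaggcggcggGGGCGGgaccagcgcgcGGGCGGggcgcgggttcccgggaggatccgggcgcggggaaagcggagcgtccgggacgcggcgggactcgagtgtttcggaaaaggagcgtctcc
PRRT3-AS1, chr3:9947154-9947453, plus strand: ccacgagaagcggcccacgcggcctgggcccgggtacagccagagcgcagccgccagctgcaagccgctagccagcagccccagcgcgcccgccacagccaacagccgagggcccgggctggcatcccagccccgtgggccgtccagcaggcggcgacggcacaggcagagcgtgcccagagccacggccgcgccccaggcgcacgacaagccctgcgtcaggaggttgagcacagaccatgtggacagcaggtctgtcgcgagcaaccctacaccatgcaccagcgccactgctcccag

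The windows differ in base composition. LINC00641 held 2 CpG dinucleotides and a G+C content of 39.0%, LINC03033 held 1 CpG and 45.0%, PRRT3-AS1 held 28 and 72.7%, and GAS6-DT held 56 and 79.7%. The GAS6-DT window had 4 GC boxes, and the LINC00641 window had 1 CCAAT box. Such matches describe the letters and do not show binding. The GAS6-DT window also holds the start of GAS6 on the opposite strand, at base 150, while GAS6-DT itself starts at base 251. The 2 starts lie 101 bases apart and point away from each other.

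Promoter windows were at hand for 154 of the 179 genes. The name classes differed in them: the median number of CpG was 11 in LINC windows (n = 53), 32 in -DT windows (n = 26) and 25 in -AS1 windows (n = 75), against 14 over 27305 windows of all genes. A GC box stood in 41.5% of LINC, 80.8% of -DT and 57.3% of -AS1 windows, against 44.6% of all windows. An ETS core stood in 13.2%, 34.6% and 14.7% of them, against 10.7% of all. For the CCAAT box the shares were 45.3%, 26.9% and 36.0%, against 35.7%, and for the TATA box 13.2%, 11.5% and 5.33%, against 11.95%. Windows of the genes that the -DT and -AS1 genes are named after (n = 66) had a median of 26.5 CpG and a GC box in 63.6%.

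Array values of all probe sets had medians of 3.96 to 3.99. Over the 179 genes, the Pearson r of array pairs was 0.974 to 0.978 among the exposed, 0.968 to 0.980 among the unexposed and 0.902 to 0.959 across the groups, a description over genes that share arrays. Unexposed replicate 2 and exposed replicate 2 were most often the highest or lowest of the 6 arrays, with 22.9% and 20.4% of the extremes among these genes and 24.8% and 22.7% among all genes at level 5 or more. The cells carried the marker genes of mesenchymal glioblastoma, with all 8 measured of 9 (among them FN1, TNC and VIM) between 6.54 and 12.03. Of 6 measured astrocyte and glial stem cell markers, NES stood at 6.83 and GFAP at 5.04, while SOX2, OLIG2, S100B and AQP4 lay between 2.95 and 4.57. Of other cell types' markers KRT18 (7.33) and KDR (6.77) were the highest. Of 26 measured markers in 7 lists, 0 passed by limma and 6 had an unadjusted p under 0.05. The summed log2 values of the mesenchymal markers were 76.7 to 77.0 in exposed and 77.1 to 77.4 in unexposed arrays. CSF1R and CD14, the measured immune markers, summed to 9.01 to 9.21 and 8.16 to 8.86, with CD14 dim at a mean of 3.15. In the other lists the summed ranges of the groups overlapped. The part of the mesenchymal and immune shifts in the differences below was not tested.

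In exposed cells 13 of the 179 noncoding genes changed, 6 higher and 7 lower. All 7 that fell were LINC genes, while the -DT and -AS1 genes that passed were higher. That split did not hold in every fit: with dim probe sets filtered out, PAXIP1-DT and VPS9D1-AS1 also passed as lower. LINC00641 fell 2.38-fold and LINC03033 rose 2.55-fold, and these were the 2 genes with a change of at least 2-fold. The threshold was an adjusted p of 0.05 in limma with Benjamini-Hochberg adjustment over all 14884 genes. It was passed by 3.06% of all genes and by 5.55% of genes at level 5 or more, 2.49% higher and 3.05% lower. Against that background stood 9 of 63 LINC genes (14.3%), 3 of 33 -DT genes (9.09%) and 1 of 83 -AS1 genes (1.2%), and the LINC count includes both genes that the rule names. The differences between the classes were not tested. The number of calls depended on single arrays: 7 passed with exposed replicate 3 left out and 4 with unexposed replicate 1 left out, where 325 and 67 of all genes passed, from 456. It was 0 with any of the other 4 left out (replicates 1 and 2 of the exposed, 2 and 3 of the unexposed), although 33 to 40 then had an unadjusted p under 0.05 in limma, and 0 of all genes passed there as well. A fit that left out the mean-variance trend gave 0 as well. All 13 kept their direction in each of these fits, as they had to. Their groups did not overlap, and the trend does not enter the log2 change.

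**Figure D1:**
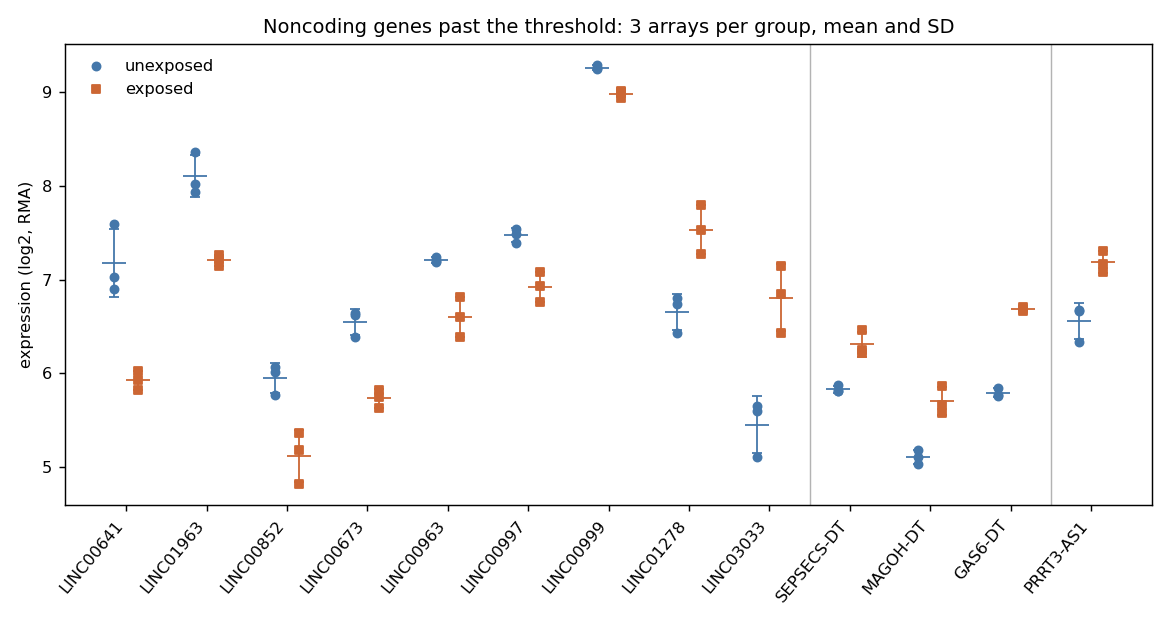
Expression (log2, RMA) of the 13 genes past the threshold, by gene and name class (LINC, -DT and -AS1 from left to right). Circles are the 3 unexposed and squares the 3 exposed arrays, bars show the mean and SD, and in each gene the exposed values lie apart from the unexposed ones.

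LINC00641 was the noncoding gene that fell most. Its values were 6.90, 7.59 and 7.03 in unexposed replicates 1, 2 and 3 and 6.02, 5.83 and 5.93 in exposed ones. Unexposed replicate 2 was the highest, and the lowest unexposed array lay above all exposed ones. The log2 change was -1.25 (SE 0.17, interval -1.65 to -0.85), and it was -1.04 without unexposed replicate 2. Its limma adjusted p was 0.0287, a description and no independent test, since the rule names LINC00641 for its difference in these data. A further probe set of this gene was dim, at a mean of 2.07, and its change was -0.20 (SE 0.15). The mean of both probe sets changed by -0.72, with a limma adjusted p of 0.0465.

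LINC01963 had 7.93, 8.36 and 8.02 in unexposed and 7.22, 7.14 and 7.26 in exposed arrays, so the groups were clearly apart, again with unexposed replicate 2 highest. Means were 8.10 ± 0.22 and 7.21 ± 0.06 (SD, n = 3), and the gene fell by 0.90 on the log2 scale (SE 0.11). LINC00673, whose nearest measured coding gene is the transcription factor gene SOX9, had 6.39, 6.64 and 6.62 in unexposed and 5.75, 5.63 and 5.83 in exposed arrays. It fell by 0.82 on the log2 scale (SE 0.10), and its lowest unexposed array lay well above the highest exposed one. Both genes had a limma adjusted p of 0.0286.

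LINC00852 was the faintest of the genes that fell, with 6.07, 5.77 and 6.02 in unexposed and 5.36, 4.82 and 5.19 in exposed arrays. Exposed replicate 2 was the lowest, and the change was -0.83 (SE 0.16), or -0.68 without that array. LINC00963 had 7.20, 7.19 and 7.24 in unexposed and 6.39, 6.81 and 6.60 in exposed arrays. Its unexposed values were almost equal and its exposed values spread, with a change of -0.61 (SE 0.11). LINC00997 had 7.39, 7.48 and 7.54 in unexposed and 7.08, 6.76 and 6.93 in exposed arrays, a change of -0.55 (SE 0.10), with each exposed array below each unexposed one. Limma adjusted p for these 3 genes lay between 0.0336 and 0.0384. LINC00963 did not pass with arrays centred on ribosomal protein genes.

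LINC00999 showed the smallest change that passed, -0.28 (SE 0.05, limma adjusted p = 0.0414). Its values of 9.24, 9.25 and 9.29 in unexposed and 9.0, 8.94 and 9.02 in exposed arrays differed little within a group. The call rests on 1 of the gene's 4 probe sets, since the others had changes of 0.14, -0.04 and -0.03. It was lost with the mean of the probe sets, with quantile normalization and with centring on ribosomal protein genes.

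Among LINC genes, LINC03033 and LINC01278 rose. LINC03033 had 5.66, 5.11 and 5.60 in unexposed and 6.85, 7.14 and 6.43 in exposed arrays. Exposed replicate 2 was the highest and unexposed replicate 2 the lowest of the 6. The change was 1.35 (SE 0.21, interval 0.87 to 1.83, limma adjusted p = 0.0298), and 1.18 without either of these arrays. As for LINC00641, that p is a description, since the rule names the gene for its difference. LINC01278 had 6.80, 6.43 and 6.74 in unexposed and 7.53, 7.80 and 7.27 in exposed arrays, a change of 0.88 (SE 0.15, limma adjusted p = 0.0334). The same 2 arrays, replicate 2 of each group, were the extremes here as well.

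LINC genes not past the threshold included LINC00623, with 5.13, 5.11 and 5.31 in unexposed and 5.63, 5.83 and 5.58 in exposed arrays (0.50, limma adjusted p = 0.0562). The LINC genes with the highest array values besides LINC00999 were LINC00987 (-0.13), LINC01347 (-0.01), LINC01000 (-0.0045) and LINC01061 (0.04). Their groups overlapped, and their intervals reached at most from -0.34 to 0.22. The signs of LINC01347 and LINC01000 turned with quantile normalization or with arrays centred on ribosomal protein genes. These 4 genes have 2 to 7 probe sets each, and LINC00999, which passed, has 4. The signal of all of them is therefore uncertain as to the copy or transcript. Array values depend on each probe set's own probes and do not rank transcript amounts between genes.

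**Figure D2:**
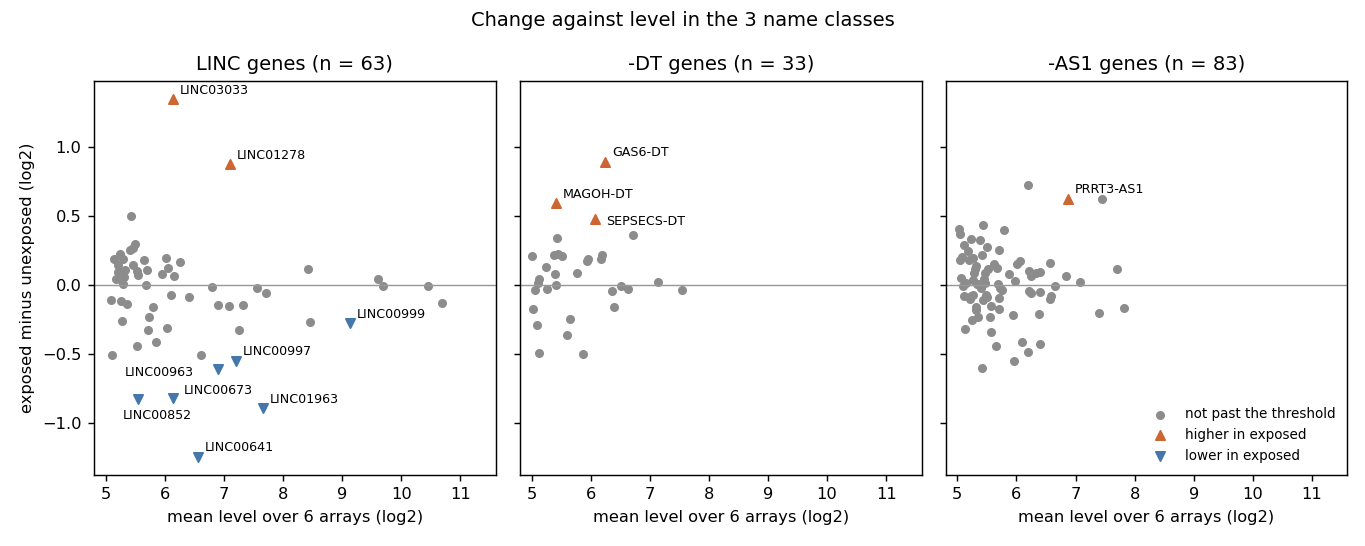
Log2 change (exposed minus unexposed) against mean level over the 6 arrays for 63 LINC, 33 -DT and 83 -AS1 genes. Triangles are genes past the threshold (up higher, down lower) and grey points the rest; the 7 that fell are all in the LINC panel, and most points of each class lie at levels between 5 and 7.

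The 3 classes differed little in their middle. The median log2 change was -0.0045 in LINC, 0.04 in -DT and 0.01 in -AS1 genes, against -0.02 over all genes at level 5 or more. The median size of the change, regardless of sign, was 0.15, 0.18 and 0.14, against 0.13. An unadjusted p under 0.05 was reached by 18 LINC genes (28.6%, 3 higher and 15 lower), 8 -DT genes (24.2%, 5 higher and 3 lower) and 21 -AS1 genes (25.3%, 10 higher and 11 lower), where 29.8% of all genes at that level reached it, 12.7% higher and 17.1% lower. The lower share of LINC genes, 23.8%, was above that and the higher share, 4.76%, below it, and this difference was not tested. Exposed and unexposed values did not overlap in 26 LINC, 8 -DT and 26 -AS1 genes, or 41.3%, 24.2% and 31.3%, where 38.4% of all genes at level 5 or more did not overlap. In total, the shares by either measure lay near the background or below it.

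Most of these genes were faint. In the band from 5 to 6 lay 114 of them, of which 2 passed, where 1.68% of the 2198 genes in that band passed. Between 6 and 7 lay 43, of which 7 passed (4.67% of all 1993 genes), and above 7 lay 22, of which 4 passed, all LINC genes (8.20% of all 3867 genes). The median SD within groups was 0.15, 0.11 and 0.10 in the 3 bands for these genes and 0.14, 0.11 and 0.09 for all genes.

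By limma, exposure went with a rise in 3 of the -DT genes, while 0 fell and 30 did not pass. GAS6-DT is named after GAS6, a secreted ligand of the TAM receptor kinases AXL, MERTK and TYRO3. It had 5.85, 5.76 and 5.77 in unexposed and 6.69, 6.71 and 6.66 in exposed arrays. Arrays within a group lay close together, and the groups lay far apart. Means were 5.79 ± 0.05 and 6.69 ± 0.02 (SD, n = 3), and the gene rose by 0.90 on the log2 scale (SE 0.08, interval 0.72 to 1.07, 1.86-fold, limma adjusted p = 0.0227). With any array left out the change lay between 0.88 and 0.92. It was also the gene of the set that passed without variance moderation.

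MAGOH-DT, named after a core protein of the exon junction complex, had 5.18, 5.11 and 5.03 in unexposed and 5.58, 5.87 and 5.66 in exposed arrays. SEPSECS-DT, named after the enzyme that makes selenocysteinyl-tRNA, had 5.87, 5.81 and 5.81 in unexposed and 6.25, 6.21 and 6.46 in exposed arrays. Neither gene's groups overlapped, and exposed values spread more than unexposed ones in both. The log2 changes were 0.59 (SE 0.11, limma adjusted p = 0.0364) and 0.48 (SE 0.09, limma adjusted p = 0.0434).

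The -DT genes with negative values and the smallest p did not pass. PAXIP1-DT had 5.93, 6.28 and 6.15 in unexposed and 5.74, 5.55 and 5.57 in exposed arrays (-0.50, limma adjusted p = 0.0597). BAIAP2-DT was at -0.37 and NIPBL-DT at -0.49, with limma adjusted p of 0.182 and 0.217. The -DT genes with the highest array values were APCDD1L-DT (-0.03), C2orf74-DT (0.02), PPP3CA-DT (0.36, limma adjusted p = 0.150), ZDHHC12-DT (-0.03) and EIF3J-DT (-0.01). Their groups overlapped. The signs of APCDD1L-DT, ZDHHC12-DT and EIF3J-DT turned with arrays centred on ribosomal protein genes.

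Of the -AS1 genes, PRRT3-AS1 rose and 82 did not pass. PRRT3-AS1 had 6.67, 6.34 and 6.67 in unexposed and 7.31, 7.08 and 7.16 in exposed arrays. Unexposed replicate 2 was the lowest, and the groups did not overlap. The change was 0.63 (SE 0.11, interval 0.36 to 0.89, limma adjusted p = 0.0349), and 0.52 without that array.

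Other -AS1 genes came close in both directions. MZF1-AS1 had 6.05, 5.48 and 5.98 in unexposed and 6.60, 6.66 and 6.43 in exposed arrays (0.72, limma adjusted p = 0.0517), and was 0.55 without the low unexposed replicate 2. DLGAP1-AS1 had 7.31, 6.80 and 7.30 in unexposed and 7.77, 7.66 and 7.86 in exposed arrays (0.63, limma adjusted p = 0.0593), with the same array lowest. On the negative side stood VPS9D1-AS1 (-0.43), TMPO-AS1 (-0.55) and WAC-AS1 (-0.49), with limma adjusted p of 0.0533, 0.0736 and 0.0836 and no overlap of groups. The others with high array values were LOXL1-AS1 (-0.17), PITPNA-AS1 (0.11), FGD5-AS1 (-0.20) and SVIL-AS1 (0.02).

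Each -DT and -AS1 gene was set beside the gene it is named after, its partner. The partner was measured for 23 of 33 -DT and 53 of 83 -AS1 genes, 76 pairs in all with 75 different partners. In 61 pairs both starts were listed, and all 61 lay on opposite strands. Of 18 such -DT pairs 16 started within 1000 bases of each other, and 16 were head to head, with the starts pointing apart. Of 43 such -AS1 pairs 13 started within 1000 bases, 7 were head to head, and in 36 the starts pointed toward each other. The median distance between starts was 142.5 bases in -DT and 9042 bases in -AS1 pairs. The strand that the probes read is not given in the sources used here, so where an -AS1 gene and its partner overlap, their signals cannot be told apart with certainty.

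The genes that rose did so beside partners that did not pass. GAS6 had 7.57, 7.42 and 7.55 in unexposed and 7.55, 7.58 and 7.63 in exposed arrays, with overlapping groups and a change of 0.07 (interval -0.09 to 0.24, limma adjusted p = 0.650). The change of GAS6-DT exceeded that of GAS6 by 0.82, a description, since the pair was picked for it. An exact permutation test gave p = 0.1 here and in the SEPSECS and PRRT3 pairs below. That is the smallest p that 3 against 3 arrays allow, so the test cannot decide. A second antisense gene of this locus, GAS6-AS1, was at 0.15 (limma adjusted p = 0.530). SEPSECS had a change of -0.0005 (interval -0.19 to 0.19) and PRRT3 one of -0.05 (interval -0.28 to 0.18). The same difference was 0.48 for SEPSECS-DT and 0.68 for PRRT3-AS1. MAGOH was not analysed here.

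**Figure D3:**
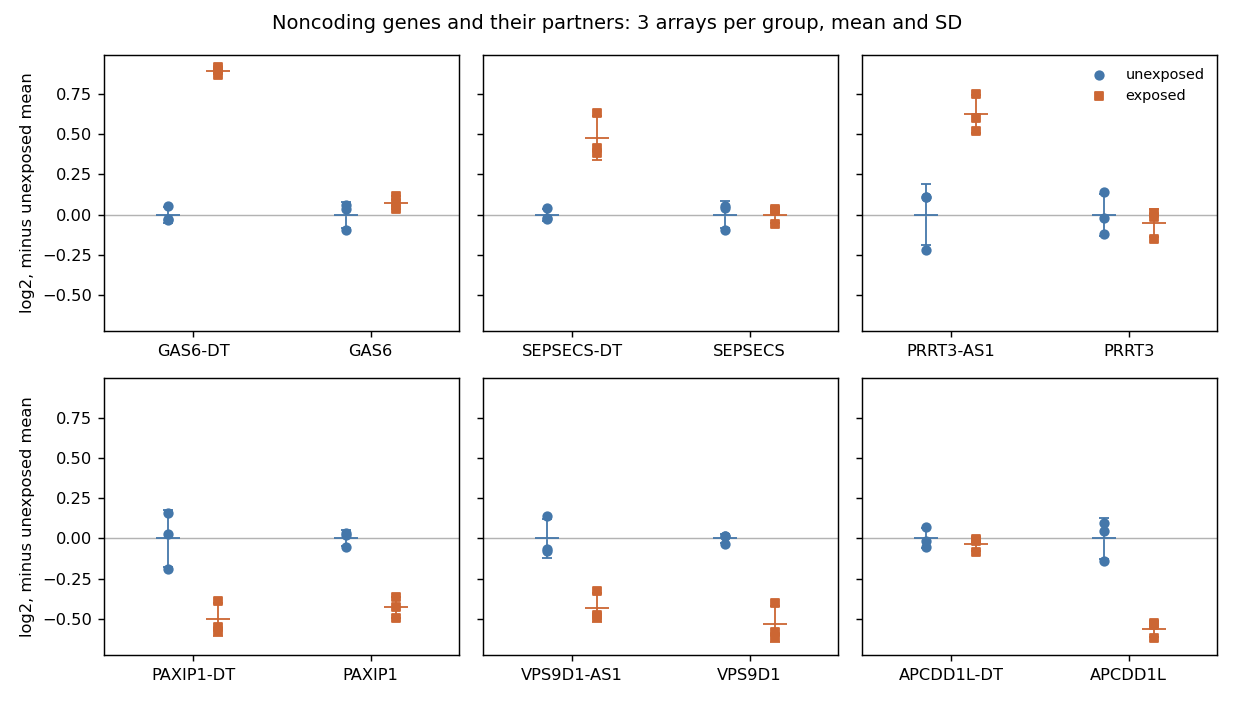
Log2 values of 6 noncoding genes and their partners, each minus the mean of its unexposed arrays. Circles are the 3 unexposed and squares the 3 exposed arrays, with mean and SD. In the top row the noncoding gene moved and the partner's groups overlapped, and in the bottom row the partner fell and the noncoding gene did not pass.

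Of the 75 partners, 66 of which were at level 5 or more, 6 fell (8.0%) and 0 rose by limma, and 21 of 76 pairs (27.6%) had a partner with an unadjusted p under 0.05. Among all genes at that level 5.55% passed, 3.05% lower and 2.49% higher, and 29.8% had such a p. The partners' lower share was above that background, with 6 genes, and the difference was not tested. PAXIP1, a DNA damage response gene, fell by 0.43 on the log2 scale beside PAXIP1-DT at -0.50, and VPS9D1 fell by 0.53 beside VPS9D1-AS1 at -0.43. Both had a limma adjusted p of 0.0298, and in these pairs the values of both genes were negative with groups apart. LOXL1, an enzyme of elastic fibre cross-linking, fell by 0.56 beside LOXL1-AS1 at -0.17 (limma adjusted p = 0.0335). APCDD1L had 9.04, 8.80 and 8.99 in unexposed and 8.40, 8.32 and 8.41 in exposed arrays and fell by 0.56 (limma adjusted p = 0.0287), beside APCDD1L-DT at -0.03 (interval -0.19 to 0.12). Named after their values were seen, PCBP3 fell by 0.87 beside PCBP3-AS1 at -0.01, and KIAA1671 fell by 0.45 beside KIAA1671-AS1 at 0.04.

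In 0 of 76 pairs did both genes pass by limma, and in 7 both had an unadjusted p under 0.05. Signs were the same in 42 pairs and opposite in 34. Across pairs, the changes of noncoding gene and partner had a Pearson r of 0.27 and a Spearman rho of 0.30 in -DT pairs (n = 23) and 0.23 and 0.18 in -AS1 pairs (n = 53), a description over genes measured on the same arrays. In the 29 pairs that start within 1000 bases r was 0.24, and in the 32 that start farther apart it was 0.39. NIPBL-DT at -0.49, with NIPBL at -0.0037 and starts 75 bases apart, and TMPO-AS1 at -0.55, with TMPO (a nuclear lamina protein gene) at -0.41 and starts 653 bases apart, are examples of close pairs, and none of these 4 genes passed. The other partners of named genes were BAIAP2 at -0.20, SVIL at -0.21, WAC at -0.10, MZF1 at 0.03 and C2orf74 at 0.02, none of which passed either.

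**Figure D4:**
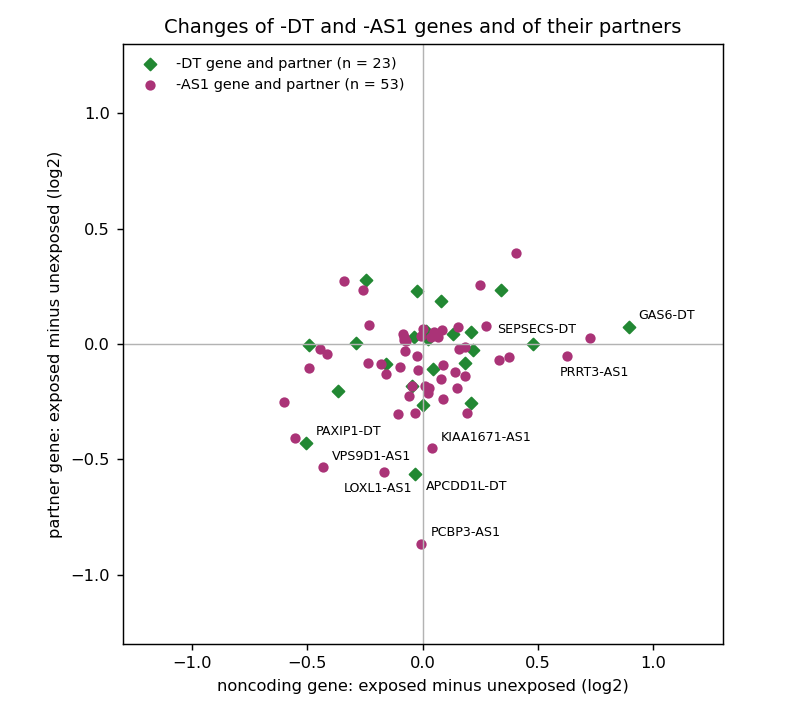
Log2 change (exposed minus unexposed) of 23 -DT (diamonds) and 53 -AS1 genes (circles) on the x axis against the change of the partner gene on the y axis. Labels give the noncoding gene of each pair in which a gene passed; GAS6-DT, PRRT3-AS1 and SEPSECS-DT lie far right at partner changes near 0.

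LINC genes have no namesake, so the nearest measured protein-coding gene in RefSeq was taken. The word near below means only that, since distances are not given and coding genes not measured here may lie closer. Of these 63 neighbours 0 passed by limma, and 12 (19.05%) had an unadjusted p under 0.05, where 3.06% of all genes passed and 18.9% had such a p. However, 47 neighbours (74.6%) were at level 5 or more, against 54.1% of all genes. Among all genes at that level 5.55% passed and 29.8% had such a p. Beside the 9 LINC genes past the threshold, KBTBD2 near LINC00997 had the neighbour change with the smallest p (-0.40, limma adjusted p = 0.0517). HNRNPC, a splicing regulator near LINC00641, was at -0.30 (SE 0.19), SOX9 near LINC00673 at -0.0017, and XRCC5, a DNA end-joining gene near LINC01963, at -0.15. TATDN2 near LINC00852 was at -0.26, NTMT1 near LINC00963 at -0.20 and ZNF37A near LINC00999 at 0.13. The probe set behind the LINC00999 call may read another copy, so ZNF37A may not be the neighbour of the measured transcript. Beside the 2 LINC genes that rose, AMER1 near LINC01278 was at -0.24 and TMEM30B near LINC03033 at -0.19, with TMEM30B dim at a mean of 3.42. Signs were the same in 35 of 63 pairs, with a Pearson r of 0.20 and a Spearman rho of 0.19 over genes of the same arrays.

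Genes that end or degrade unstable noncoding transcripts were taken as a list, with 34 of 51 measured. INTS3, a subunit of Integrator, rose by 0.32 on the log2 scale (SE 0.06, limma adjusted p = 0.0336), and it was the 1 gene of the 34 to pass. Its values were 9.03, 9.03 and 9.10 in unexposed and 9.38, 9.42 and 9.32 in exposed arrays. INTS6, of the same complex, was at 0.32 (limma adjusted p = 0.121), INTS12 at -0.51 (limma adjusted p = 0.0675) and the exosome nuclease EXOSC10 at -0.27 (limma adjusted p = 0.0567). With the mean of its 2 probe sets EXOSC10 was at 0.06. The list's median was -0.06, against -0.02 over all genes at level 5 or more, and 11 genes (32.4%) had an unadjusted p under 0.05, against 29.8%. The share that passed was 2.94%, against 5.55%.

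Noncoding genes outside the 3 name classes were taken as a further list of 34 measured genes, 9 of them SNHG genes, which host small nucleolar RNAs. Of the 34, 23 were at level 5 or more. By limma 2 fell (5.88%), 0 rose and 32 did not pass, with a median of -0.02. Among all 14884 genes 248 fell and 208 rose (3.06% in both directions). Among those at level 5 or more 3.05% fell and 2.49% rose (5.55% in both directions). The difference was not tested. SNHG16 had 9.08, 9.27 and 9.13 in unexposed and 8.69, 8.53 and 8.86 in exposed arrays, a change of -0.47 (SE 0.09). NORAD, a cytoplasmic RNA that binds Pumilio proteins, had 10.6, 10.7 and 10.6 in unexposed and 10.4, 10.3 and 10.3 in exposed arrays, a change of -0.28 (SE 0.06). Both had a limma adjusted p of 0.0442 and groups that did not overlap. RPPH1, the RNA of ribonuclease P, was at 0.36 (limma adjusted p = 0.0579) and NRAV at 0.28 (limma adjusted p = 0.122).

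The changes of the 13 genes differed in how much they rested on 1 array. GAS6-DT stayed between 0.88 and 0.92 when arrays were left out and LINC00999 between -0.29 and -0.25, while LINC00641 ranged from -1.39 to -1.04 and LINC03033 from 1.18 to 1.54. GAS6-DT, LINC00641, LINC00673 and LINC01963 were the genes that passed both without exposed replicate 3 and without unexposed replicate 1. Without any other array 0 of the 13 passed, and the highest limma adjusted p of each gene over the 6 fits lay between 0.120 and 0.144.

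**Figure D5:**
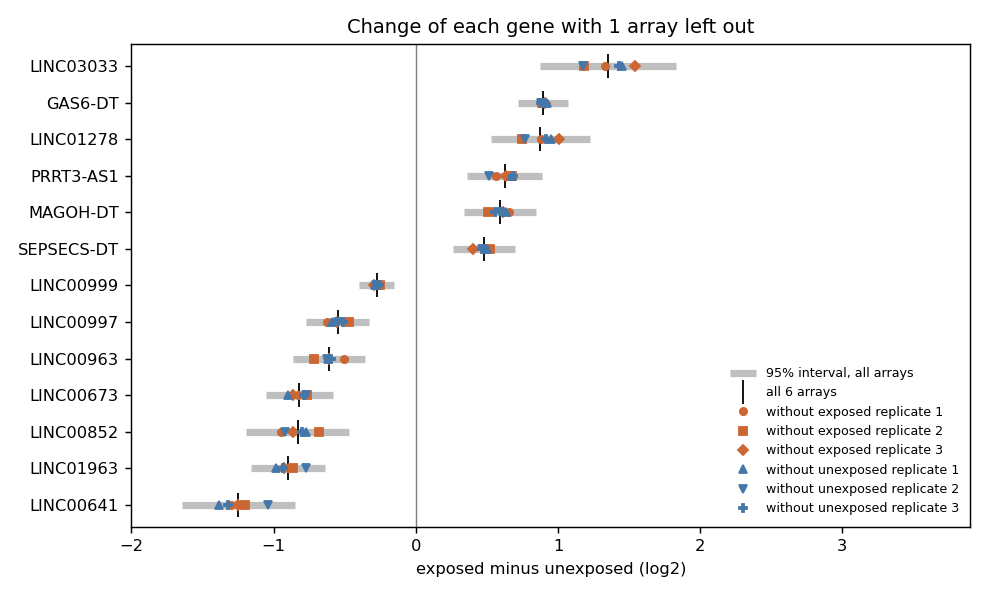
Log2 change (exposed minus unexposed) of the 13 genes with all 6 arrays (black bar, with its 95% interval in grey) and with each array left out in turn (coloured symbols). No symbol crosses 0, which follows from groups that do not overlap. The symbols of GAS6-DT and LINC00999 lie close together while those of LINC03033 and LINC00641 spread.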

How the data were processed

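Members and gene lists were chosen with earlier results of these data known. The authors deposited 1 log2 value per probe set and array, made with RMA (background correction, normalization between arrays, summary of probes) in Affymetrix Expression Console 3.0 and Transcriptome Analysis Console 3.0, per the submitters' processing notes. Their other settings were not given in the sources used here. RMA makes array distributions alike, so a change in total RNA per cell would not show. Arrays have no read depth; with 3 per group, their number sets the precision. Groups came from the sample titles, since the description of the exposed samples also calls them control cells.

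Of 53617 probe sets 16098 carried a single symbol in the platform annotation, and 37519 were unnamed here. Each of 14884 genes was represented by its probe set with the highest mean over 6 arrays. All 179 members were found in RefSeq (GRCh38.p14) under the same symbol. Differences are exposed minus unexposed from limma 3.58.1 in R 4.3.3 (lmFit, eBayes with a mean-variance trend, all probe sets, no covariates, two-sided). Adjusted p-values are Benjamini-Hochberg over the 14884 genes, at a threshold of 0.05. Intervals are 95% intervals, and the fit was tested on simulated arrays. Correlations used scipy 1.17.1, and figures used matplotlib 3.10.9.

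Named are both genes of the rule, all members past the threshold, the 5 with the highest level and the 3 with the smallest p in each direction per class, their partners, and 2 genes per direction of each further list. Motifs, LINC neighbours and level bands were added after values were seen. Alternatives were the variance model, a replicate block, normalization, centring, a filter on dim probe sets, averaging the probe sets of each gene, the features fitted, the level of 5 and leaving out each array.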

Additional observations from a re-analysis of the deposited data

How the results depend on the processing

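The number of genes that passed did not hold. The 13 genes kept their direction in all 15 alternatives that refit the data, but in most of these that was fixed beforehand. The variance model, the block, the filter and the features fitted do not alter a gene's log2 change. Where groups do not overlap, leaving out 1 array cannot turn the sign. Without a mean-variance trend and with the replicate block, 0 members passed, higher or lower and in each name class, as did 0 RNA decay and 0 other noncoding genes; 41 and 43 members had an unadjusted p under 0.05 in limma. Deviations of same-numbered arrays from their group means had correlations of -0.025, -0.016 and 0.0096, and those of differently numbered arrays -0.019 to 0.035. They were taken over all probe sets, many of them dim, so they cannot show whether replicates were handled in pairs. Without variance moderation 1 passed (higher, -DT), with 0 lower, 0 LINC, 0 -AS1 and 0 in both further lists. A fit on representative probe sets alone gave 10 higher and 15 lower, with 8 -AS1 genes over both directions, and 4 RNA decay and 5 other noncoding genes. There PAXIP1-DT, VPS9D1-AS1, TMPO-AS1, WAC-AS1 and RASSF8-AS1 were among the genes that fell, so the lower genes were not all LINC genes. Quantile normalization gave 2 -AS1 genes, probe sets above the median level 4 with 2 RNA decay genes, and a minimum level of 4 gave 2. Other noncoding genes numbered 1 with arrays centred on medians or on ribosomal protein genes. The latter gave medians of 0.0785 (LINC), 0.126 (-DT) and 0.0951 (-AS1), where the median of all genes was 0.0858. The alternatives for both further lists were chosen after seeing the data. Of all genes 456 passed, against 0 without the trend or with the block, 4 without moderation, 753 above the median level and 1209 among representatives alone. A minimum level of 6 gave a LINC median of -0.0883. With 1 array left out, counts ran from 0 to 3 higher, 0 to 4 lower, 0 to 6 LINC, 0 to 1 -DT, 0 to 0 -AS1, 0 to 2 RNA decay and 0 to 2 other noncoding genes, and medians from -0.0458 to 0.0219 (LINC), 0.0198 to 0.0985 (-DT) and 0.00332 to 0.0350 (-AS1).

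Signs turned as follows. With ribosomal centring LINC01347 was at 0.0770, LINC01000 at 0.0785, APCDD1L-DT at 0.0494, ZDHHC12-DT at 0.0515, EIF3J-DT at 0.0719, PRRT3 at 0.0311, SEPSECS at 0.0825 and NIPBL at 0.0793. With quantile normalization LINC01347 was at 0.0229, LINC01000 at 0.0173, EIF3J-DT at 0.00797, SEPSECS at 0.00794 and NIPBL at 0.0372. With the mean of its probe sets EXOSC10 was at 0.0557, from -0.27. With 1 array left out, ranges crossed 0 for APCDD1L-DT (-0.0593 to 0.000803), C2orf74 (-0.0356 to 0.138), C2orf74-DT (-0.0406 to 0.115), EIF3J-DT (-0.176 to 0.119), LINC01000 (-0.0864 to 0.0450), LINC01061 (-0.0322 to 0.106), LINC01347 (-0.0528 to 0.0360), MZF1 (-0.0723 to 0.140), NIPBL (-0.0472 to 0.0285), PRRT3 (-0.111 to 0.0173), SEPSECS (-0.0477 to 0.0284) and ZDHHC12-DT (-0.0557 to 0.00468). The causes were not tested.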

Other observations

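Below the level of 5, PAX8-AS1 was the gene of the 3 name classes that passed, out of 810. Exposed arrays averaged 5.15 ± 0.26 and unexposed ones 4.28 ± 0.06 (SD, n = 3), and the gene rose by 0.86 on the log2 scale (SE 0.15, limma adjusted p = 0.0334). Among those 810 genes 37 (4.57%) had an unadjusted p under 0.05, 35 higher and 2 lower, and 105 (12.96%) had groups that did not overlap, 78 of them higher. Of all 14884 genes 456 passed, and 447 of these were among the 8058 at level 5 or more, so calls below it were rare in general. An unadjusted p under 0.05 was reached by 1296 genes higher and 1519 lower, 1025 and 1377 of them at level 5 or more. Groups did not overlap in 4020 genes, 3092 of them at that level. The 810 genes were not tested against the other genes under level 5.

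Several probe sets stood for 35 of the 179 genes. Of their 57 further probe sets 53 were left after removing repeats of identical values within a gene. Of these 53, 37 had the sign of the one used and 28 were at level 5 or more. LINC-PINT, a noncoding gene known as a p53 target and named after its values were seen, had changes of 0.12 (SE 0.15), 0.73 (SE 0.18) and 0.36 (SE 0.16) in probe sets with means of 8.43, 6.37 and 6.83, and none passed. When p-values were adjusted over all 53617 probe sets, 5 of the 179 genes passed by limma, all of them among the 13. They were GAS6-DT (0.0287), LINC00673 and LINC01963 (both 0.0361), LINC00641 (0.0375) and LINC03033 (0.0441). Of all 53617 probe sets 378 passed with that adjustment. The 13 genes had been picked by p-values of the same fit, so the count is a description and no independent test.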
